A study of Mus musculus with 16 samples.

Results

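Neutrophil granule genes were examined in RNA-Seq of CD11b+ brain cells from mice on a standard diet, a malnourished diet, or a malnourished diet with bacterial gavage. The 10 genes were chosen by name, with earlier results of these counts known, from 24421 rows of the count table. They comprise 4 genes of primary granules (Elane, Mpo, Prtn3, and Ctsg) and 6 genes grouped with secondary granules (Camp, Ngp, Ltf, Lcn2, Chil3, and Cebpe). Because they were selected on what these libraries had shown, their own differences between groups are given as a description, without p values.

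All mice were C57BL/6J, female and newly weaned per the Methods. The 4 CON mice ate standard chow, and the 5 MAL mice ate an isocaloric diet low in protein and fat for about a month. The 7 MAL-BG mice ate this same diet and were also gavaged repeatedly with a mixture of E. coli and Bacteroidales bacteria. Mice of the other groups were gavaged with PBS in that period, per the Methods. Brains were dissociated enzymatically and CD11b+ cells were enriched with magnetic beads. CD11b is carried by microglia and also by neutrophils and monocytes, so the enrichment keeps any granulocytes in the tissue or its vessels. The labels call the tissue cortical, while the Methods name whole cerebra.

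Neutrophils fill their granules in a fixed order as they mature in the bone marrow. Promyelocytes transcribe the serine proteases and myeloperoxidase of primary granules, then myelocytes and metamyelocytes transcribe the antimicrobial proteins of secondary granules under the transcription factor C/EBPε. Mature neutrophils in blood keep the proteins but transcribe these genes little, and carry instead abundant S100a8 and S100a9 mRNA. Transcripts of primary granules are therefore known as marks of neutrophil precursors.

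Libraries of CON held 10312703 to 13461574 gene counts, those of MAL 10864121 to 12819982, and those of MAL-BG 14191791 to 18705202. MAL-BG replicate 5 stood apart from every other library in the granule genes, so the counts of called genes and the fold changes of the granule genes in MAL-BG are given with and without it. Replicate numbers are running numbers in the deposited table and order nothing. Across all 14565 tested genes, MAL-BG libraries held less of the choroid plexus epithelium markers (Ttr and 4 others, summed CPM of 1446 to 12848, against 10446 to 40399 in CON and 4857 to 31773 in MAL) and more of the 8 microglia markers (33681 to 46067, against 15466 to 25453 and 16108 to 27635). CPM, the standard depth-scaled count, was computed from TMM-adjusted library totals. The part of these shifts in the granule results was not tested. In bulk RNA, fewer cells of a type and less RNA per cell cannot be told apart.

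The genes lie on 6 chromosomes in GRCm38. Prtn3 (chr10:79874476-79883174) and Elane (chr10:79886247-79888215) are neighbours separated by 3.07 kb. Camp (chr9:109847379-109849617), Ngp (chr9:110419747-110423012), and Ltf (chr9:111019271-111042767) lie within 1195 kb of one another. Ctsg (chr14:56099881-56102574) and Cebpe (chr14:54710360-54712174) share a chromosome, and Mpo (chr11:87793581-87804413), Lcn2 (chr2:32384633-32388252), and Chil3 (chr3:106147554-106167564) stand alone. Exons of Plppr3 overlap those of Prtn3 on the opposite strand, and exons of Gm11505 overlap those of Mpo on the opposite strand. The strand option used for counting is not given in the sources used here, so reads of these overlaps cannot be assigned to 1 gene with certainty. Chil3 has close paralogs, and its counts carry the same caution.

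Because the granule genes moved together, the 250 bases before their RefSeq starts (GRCm38.p6) were searched on both strands. These were known for 9 of the 10 genes, Cebpe being the other. The letters AGGAAGT, of the kind bound by PU.1 and other ETS factors, were picked after the promoters had been read. On the other strand they read ACTTCCT. They occurred in 4 of 4 primary granule promoters and in 1 of 5 secondary ones (Chil3), against 7.69% of 32851 mouse promoters. As the letters were picked after reading, that contrast is a description only. The letters TTGCNNAA (TTNNGCAA on the other strand), of the kind bound by C/EBP factors, occurred in 0 of 4 primary and 3 of 5 secondary promoters, against 9.56% of all. The sequences below show each match in capitals within its surroundings, read 5′ to 3′ along the gene, the first 4 with the ETS letters and the last 3 with the C/EBP letters.
Elane: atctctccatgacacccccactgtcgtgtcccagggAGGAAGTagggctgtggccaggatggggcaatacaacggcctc
Mpo: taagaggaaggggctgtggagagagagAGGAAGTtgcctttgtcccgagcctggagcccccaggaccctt
Prtn3: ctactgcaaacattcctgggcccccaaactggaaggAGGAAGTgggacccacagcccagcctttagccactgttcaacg
Ctsg: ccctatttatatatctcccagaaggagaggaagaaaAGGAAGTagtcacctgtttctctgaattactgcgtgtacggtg
Ngp: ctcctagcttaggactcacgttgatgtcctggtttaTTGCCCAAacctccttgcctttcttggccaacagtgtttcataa
Ltf: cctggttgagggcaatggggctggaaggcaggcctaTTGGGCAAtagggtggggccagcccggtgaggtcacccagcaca
Lcn2: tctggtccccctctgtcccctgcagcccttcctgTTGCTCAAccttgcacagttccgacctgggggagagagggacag

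The ETS letters began 84 bases before the start in Elane (chr10:79886192-79886270, plus strand), 223 in Mpo (chr11:87793534-87793603, plus strand), 94 in Prtn3 (chr10:79879537-79879615, plus strand), and 206 in Ctsg (chr14:56102738-56102816, minus strand). The C/EBP letters began 138 bases before the start in Ngp (chr9:110419634-110419713, plus strand), 75 in Ltf (chr9:111019181-111019260, plus strand, with the match on the other strand), and 216 in Lcn2 (chr2:32387912-32387989, minus strand). Ngp held another match 11 bases before its start. The starts are those of RefSeq. GENCODE M21, used for the gene spans, holds transcripts of Prtn3 and Lcn2 that begin further upstream, so these windows lie inside the spans given for those genes. The GENCODE starts of Elane, Mpo, Ngp, and Ltf also lie upstream of the RefSeq ones. The windows of Elane and Mpo cross those starts, and the other Ngp match lies inside the span of Ngp. A match is only a run of letters, since binding was not measured here.

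The primary granule genes were near zero in most CON and MAL libraries. Elane, neutrophil elastase, had 0, 2.23, 0, and 0.530 CPM in CON replicates 1 to 4, and 0.766, 0.373, 0, 0.0806, and 0 in MAL replicates 1 to 5. In MAL-BG it ran from 0.238 CPM in replicate 6 through a median of 2.37 to 254 in replicate 5. The groups overlapped, with 4 of 7 MAL-BG libraries above every CON and MAL library. The fitted log2 fold change of Elane was 5.93 ± 1.95 (SE) against CON and 7.31 ± 1.98 against MAL. Without MAL-BG replicate 5 these fell to 2.57 ± 1.22 and 4.0 ± 1.26.

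Mpo, the peroxidase that makes hypochlorous acid, had 0, 7.89, 0, and 0 CPM in the CON libraries and 0.511, 0.224, 0, 0.403, and 0 in the MAL libraries. In MAL-BG its lowest value was 0.0594 CPM, the median 5.54, and the highest 506. CON replicate 2 alone carried Mpo among CON mice and lay above 4 of the 7 MAL-BG libraries. The log2 fold change of Mpo was 5.45 ± 1.93 against CON and 8.42 ± 2.21 against MAL, or 2.33 ± 1.38 and 5.36 ± 1.59 without MAL-BG replicate 5.

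Prtn3, the serine protease proteinase 3, had 0.307, 5.19, 0.394, and 0.303 CPM in CON and 1.36, 1.49, 0.516, 0.483, and 0.478 in MAL. MAL-BG values of Prtn3 ran from 0 in replicate 6 through a median of 4.61 to 188 in replicate 5. Ctsg, the protease cathepsin G, had 0, 2.97, 0.0788, and 0.151 CPM in CON and 0.255, 0.298, 0.0860, 0, and 0 in MAL. Its MAL-BG values ran from 0 through a median of 0.758 to 63.9. For both genes CON replicate 2 stood above the MAL-BG median, and MAL-BG replicate 6 had no count. Compared with CON, Prtn3 had a log2 fold change of 4.51 ± 1.55 and Ctsg of 3.74 ± 1.70, which fell to 2.38 ± 1.13 and 0.67 ± 1.16 without MAL-BG replicate 5. Against MAL these were 5.27 ± 1.49 for Prtn3 and 6.22 ± 1.91 for Ctsg, and 3.18 ± 1.09 and 3.17 ± 1.33 without that library.

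**Figure D1:**
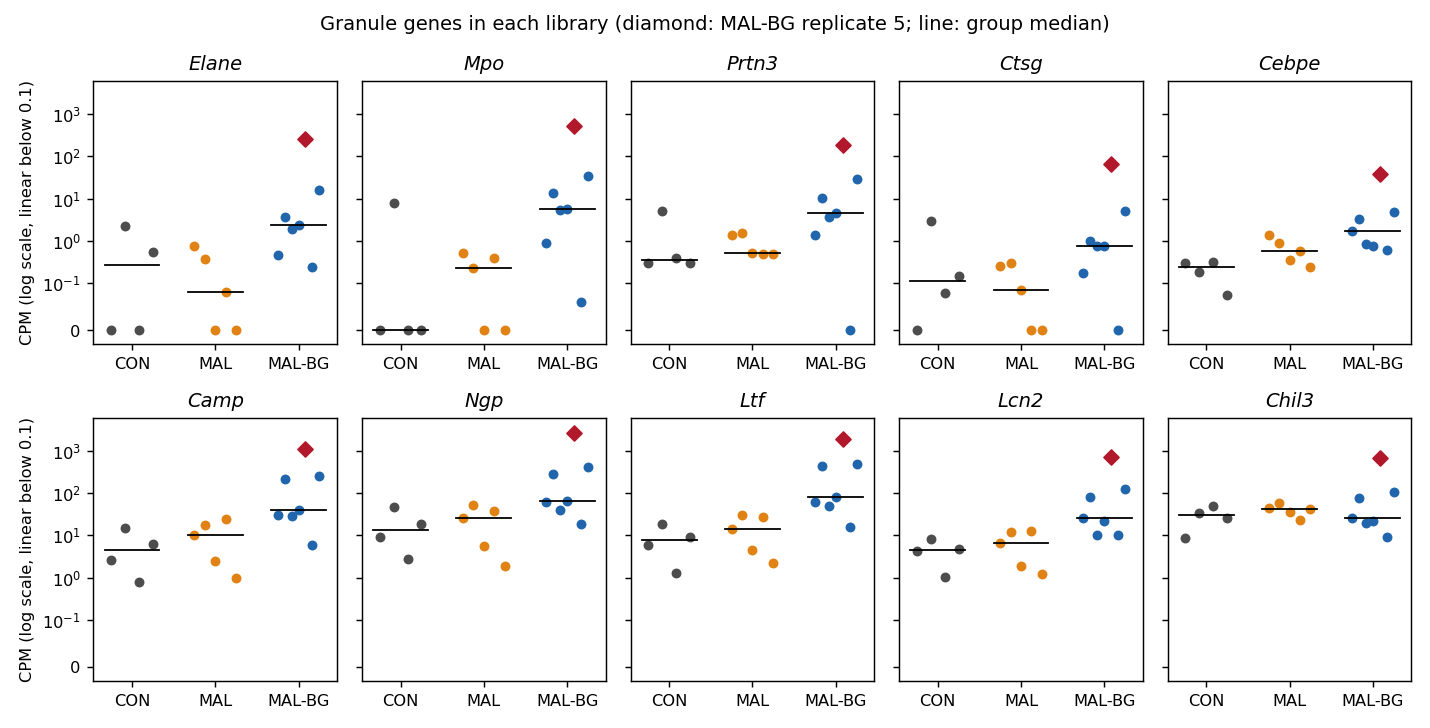
CPM of each granule gene (vertical axis, logarithmic and linear below 0.1) in each library of the CON (4), MAL (5), and MAL-BG (7) groups, with lines at group medians and a diamond for MAL-BG replicate 5. The diamond is the highest point in all 10 panels, CON replicate 2 is the high CON point for Elane, Mpo, Prtn3, and Ctsg, and Chil3 medians lie between 26.1 and 41.5 in the 3 groups.

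Camp, Ltf, Ngp, and Lcn2 were detected in every library, and more MAL-BG libraries stood above all others in them than in the primary genes. Camp, the cathelicidin antimicrobial peptide, had 2.61, 15, 0.788, and 6.28 CPM in CON and 9.87, 17.7, 2.41, 24.6, and 0.956 in MAL. MAL-BG values of Camp ran from 5.82 in replicate 6 through a median of 40.2 to 1108 in replicate 5. With replicate 6 as the exception, the MAL-BG libraries lay above every CON and MAL library. The log2 fold change of Camp was 5.30 ± 1.43 against CON and 4.43 ± 1.23 against MAL, or 3.94 ± 1.13 and 3.08 ± 0.97 without MAL-BG replicate 5.

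Ltf, lactoferrin, an iron-binding protein, behaved alike. It had 5.91, 18.7, 1.26, and 9.16 CPM in CON and 14.1, 30.5, 4.47, 27.7, and 2.15 in MAL. Its MAL-BG values ran from 15.6 through a median of 78.6 to 1926, again with 6 of 7 libraries above all CON and MAL libraries. The log2 fold change of Ltf was 5.64 ± 1.38 against CON and 4.78 ± 1.18 against MAL, or 4.39 ± 1.08 and 3.53 ± 0.93 without MAL-BG replicate 5.

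Ngp, neutrophilic granule protein, had 9.06, 45.3, 2.68, and 18.2 CPM in CON and 26.0, 52.9, 5.59, 38.0, and 1.91 in MAL. MAL-BG values of Ngp ran from 18.4 through a median of 63.0 to 2682, the highest CPM of any granule gene in any library. Lcn2, lipocalin-2, which binds bacterial siderophores, had 4.30, 8.26, 1.02, and 4.77 CPM in CON and 6.47, 11.9, 1.89, 12.7, and 1.19 in MAL. Its MAL-BG values ran from 9.98 through a median of 25.6 to 704. For each of these genes, 5 of 7 MAL-BG libraries exceeded the highest CON or MAL library. Compared with CON, Ngp had a log2 fold change of 4.76 ± 1.46 and Lcn2 of 4.94 ± 1.30, and these were 2.92 ± 1.02 and 3.29 ± 0.87 without MAL-BG replicate 5. Against MAL they were 4.35 ± 1.29 for Ngp and 4.35 ± 1.13 for Lcn2, and 2.51 ± 0.91 and 2.71 ± 0.77 without that library.

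Cebpe encodes C/EBPε, the regulator of secondary granule genes. Its counts were low, with 0.307, 0.186, 0.315, and 0.0757 CPM in CON and 1.36, 0.895, 0.344, 0.564, and 0.239 in MAL. MAL-BG values of Cebpe ran from 0.594 through a median of 1.71 to 37.8, so every MAL-BG library lay above every CON library while MAL and MAL-BG overlapped. The log2 fold change of Cebpe was 4.96 ± 1.31 against CON and 3.37 ± 1.03 against MAL, or 3.08 ± 0.75 and 1.5 ± 0.60 without MAL-BG replicate 5.

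Chil3, the chitinase-like protein Ym1, differed from the other granule genes. It had 8.83, 34, 49.8, and 26.0 CPM in CON and 43.6, 59.3, 34.6, 22.5, and 41.5 in MAL. In MAL-BG it ran from 8.91 through a median of 26.1 to 661, and only replicates 2, 5, and 7 exceeded the highest MAL library. CON replicate 3, the lowest CON library for Camp, Ngp, Ltf, and Lcn2, was the highest for Chil3. The log2 fold change of Chil3 was 2.14 ± 0.98 against CON and 1.70 ± 0.88 against MAL, and 0.47 ± 0.57 and 0.04 ± 0.53 without MAL-BG replicate 5. Chil3 is also made by monocytes and some macrophages, and the summed CPM of the 6 monocyte markers was highest among CON libraries in replicate 3 (313). That relation was not tested.

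All 10 granule genes passed the filter on low counts (more than 10 counts in at least 4 libraries), several of them mainly through MAL-BG. Elane and Ctsg exceeded 10 counts in 1 CON, 0 MAL, and 5 MAL-BG libraries, and Mpo in 1, 0, and 6. Prtn3 did so in 1, 2, and 6, and Cebpe in 0, 2, and 6. Without the MAL-BG libraries none of these genes would have passed. A gene was called in the edgeR quasi-likelihood test where its Benjamini-Hochberg adjusted p lay under 0.05 and its log2 fold change exceeded 0.58 in size. Of the granule genes, 8 of 10 were called higher in MAL-BG than in CON (3 of 4 primary and 5 of 6 secondary), beside 11.4% of all tested genes called higher and 21.7% called lower. Against MAL, 9 of 10 were called higher (4 of 4 and 5 of 6), beside 10.2% higher and 20.2% lower over all genes. The genes were selected with this contrast known, so nothing is read from these counts.

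Without MAL-BG replicate 5, 5 of 10 granule genes were called higher against CON (0 of 4 primary and 5 of 6 secondary), beside 11.1% of all genes. Against MAL, 7 of 10 were called (3 of 4 and 4 of 6), beside 10.3%. The CON comparison also turned on single CON libraries, with 0 of 4 primary genes called without CON replicate 3 or without CON replicate 4, 1 of 4 without CON replicate 1, and 4 of 4 without CON replicate 2. No granule gene had all 7 MAL-BG libraries above all 9 others, which 6.17% of tested genes had. Under mean log2 CPM centring the median gene shifted by 0.25 against CON and 0.22 against MAL, and the share of called genes that were higher moved from 34.4% to 57.8% and from 33.4% to 58.3%. The granule genes called were then 9 of 10 in each comparison.

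**Figure D2:**
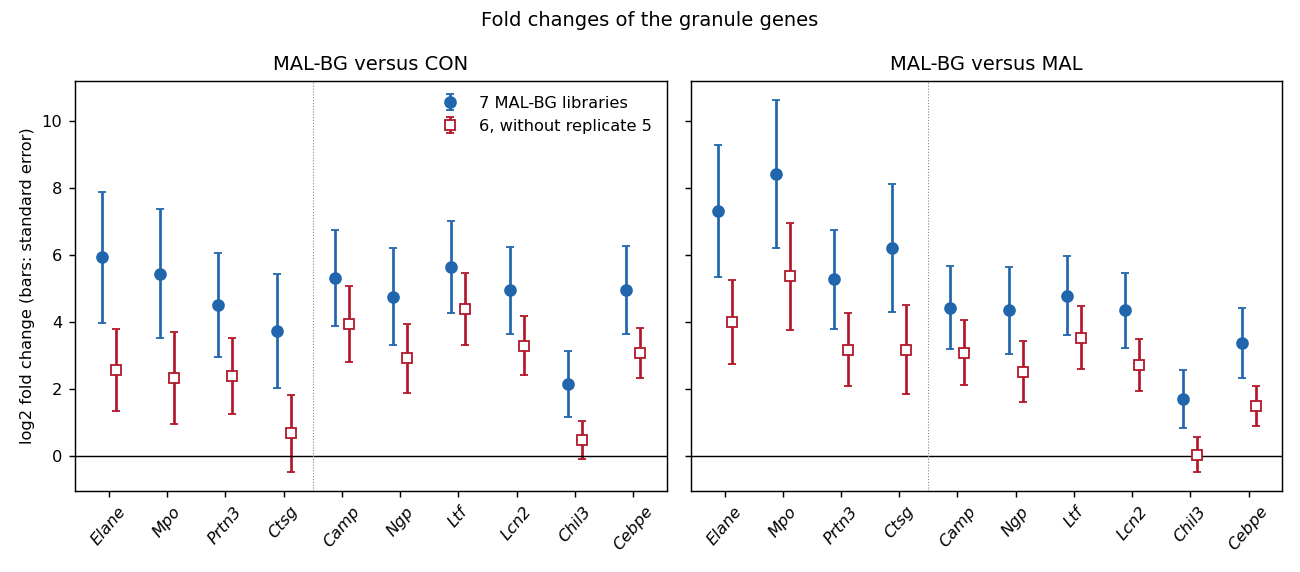
Log2 fold change with standard error of each granule gene in MAL-BG versus CON (left) and versus MAL (right), from the fit of all libraries (filled circles) and the fit without MAL-BG replicate 5 (open squares). The primary genes, left of the dotted line, lose the most without that library, as Ctsg falls from 3.74 to 0.67 against CON, while Ltf falls from 5.64 to 4.39.

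MAL and CON libraries overlapped in each of these genes. In this comparison 0% of genes were called higher and 0% lower, 0 granule genes among them. By edgeR 212 genes had an unadjusted p under 0.05, and DESeq2 called 0. The log2 fold changes of MAL over CON were -1.38 ± 2.62 for Elane and -2.98 ± 2.67 for Mpo, against 0.87 ± 1.28 for Camp and 0.86 ± 1.18 for Ltf. The negative values of the primary genes rested on CON replicate 2, since without it they were 0.42 for Elane, 1.36 for Prtn3, and 0.68 for Ctsg.

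Per kilobase of exon, the order of the genes differed between groups. In MAL-BG the medians were 53.0 CPM per kb for Camp, 51.6 for Ngp, 22.8 for Ltf, 16 for Chil3, and 9.76 for Lcn2. The primary genes and Cebpe were lower, from 2.66 for Prtn3 to 0.734 for Ctsg. In CON and MAL, Chil3 led with 18.4 and 25.4 CPM per kb, ahead of Ngp with 11.1 and 21.2. The ranges over libraries of neighbours in this order overlapped in every group. In MAL-BG replicate 5 Ngp led with 2195 CPM per kb, followed by Camp with 1462 and Ltf with 558, while Elane reached 258.

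MAL-BG replicate 5 held 91.1% of the summed MAL-BG CPM of Elane, 89.5% of Mpo, 89.3% of Ctsg, and 79.5% of Prtn3. Its share was lower for secondary granule genes, from 63.3% for Ltf to 76.0% for Cebpe. Relative to the median of the other 6 MAL-BG libraries, its level was 45.1 to 120 times as high for the 4 primary genes and 27.6 to 43.4 times as high for the 6 secondary genes. Among genes of promyelocytes and progenitors, Fcnb (ficolin-1) stood at 123 times, Ms4a3 at 59.8, Prss57 (a primary granule protease) at 55.6, Gfi1 at 12.8, and Myb at 10.3. In the same lists Kit stood at 4.35, Cebpa at 1.01, and Cd34 at 0.857 times, and the 9 primary granule companions with a ratio had a median of 1.47. The proliferation genes Mki67 and Top2a stood at 6.04 and 7.33 times. S100a8 and S100a9 stood at 19.9 and 18.3 times, and Cxcr2, a receptor of mature neutrophils, at 5.09.

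Some genes of other bone marrow lineages were also high in this library. The basophil proteases Mcpt8 and Prss34 stood at 9.07 and 21.6 times the median of the other MAL-BG libraries, and all 4 eosinophil markers had their highest value of 16 libraries there, though Siglecf stood at only 1.74 times. The mast cell protease Cma1 stood at 0.569 times, and Mcpt4 and Tpsb2 were at 0 in this library. The 6 monocyte markers had a median of 2.32 times, from 1.35 for Ccr2 to 5.10 for Ly6c2. Of these, 1 (Ly6c2) had its highest value of 16 libraries there. Their summed CPM was 426, beside 417 in MAL replicate 1. Markers of B lineage cells did not follow, with a median of 1.21 times over 5 genes. Of the 5 erythroid markers, the 4 hemoglobin genes were listed at 0 in all libraries. Microglia markers had a median of 0.937 times, with P2ry12 at 1.33 and Cx3cr1 at 0.562. The source of these transcripts was not tested.

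**Figure D3:**
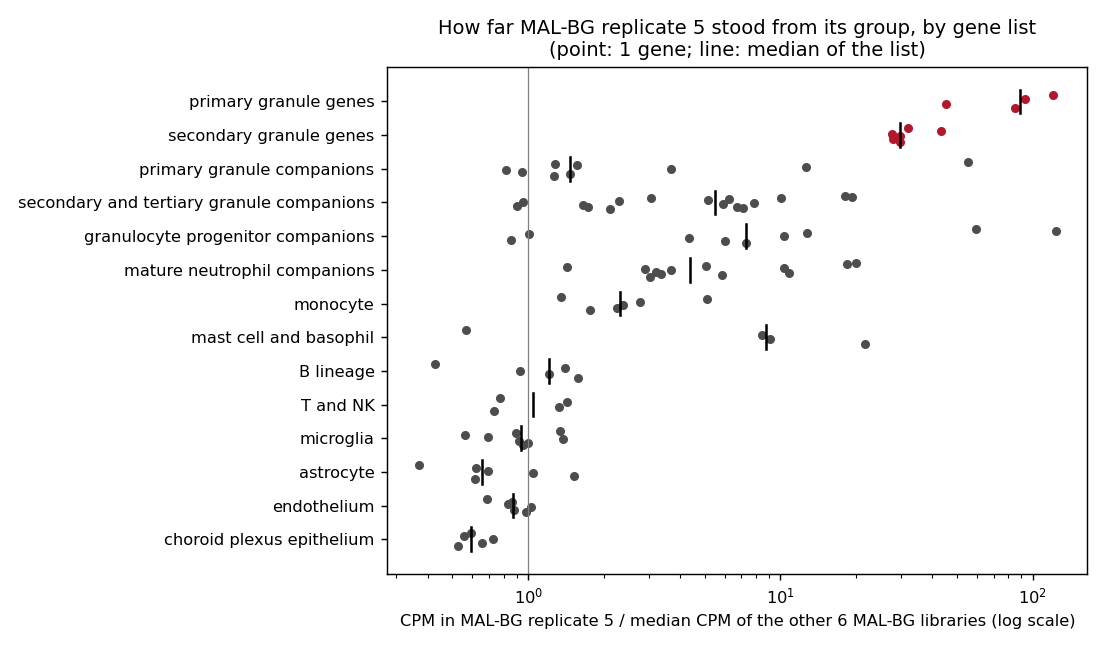
CPM in MAL-BG replicate 5 divided by the median CPM of the other 6 MAL-BG libraries (horizontal logarithmic axis), with a point for each gene and a line at the median of each list. Primary granule genes have a median of 88.9 times, secondary granule genes 29.7, granulocyte progenitor companions 7.33, mature neutrophil companions 4.39, and microglia 0.937.

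The composition of granule transcripts varied between libraries of 1 group as much as between groups. The 4 primary genes were expressed as a share of the counts of these 4 plus Camp, Ngp, Ltf, and Lcn2. This share was 1.38%, 17.3%, 7.59%, and 2.5% in CON replicates 1 to 4 and 4.88%, 2.07%, 4.02%, 0.930%, and 7.14% in MAL replicates 1 to 5. In MAL-BG it ran from 0.593% in replicate 6 through a median of 6.12% to 13.6% in replicate 5. CON replicate 2 had the highest share of all, 17.3% (Wilson 95% interval 15.2 to 19.6), above the 13.4 to 13.8% interval of MAL-BG replicate 5, which rests on far more counts. The interval of CON replicate 3 spanned 3.53 to 15.6%, since it held only 6 primary counts. Intervals cover counting error only.

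Libraries with like amounts of granule transcripts could differ in this share. MAL-BG replicates 2 and 7 had similar summed granule CPM (1113 and 1458) but primary shares of 2.74% (2.48 to 3.03) and 6.20% (5.86 to 6.56). MAL-BG replicate 3, with a summed CPM of 158, had a share of 8.47% (7.33 to 9.76). CON replicate 2 reached its share with a summed CPM of 140, less than the 176 of MAL replicate 2, whose share was 2.07%.

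**Figure D4:**
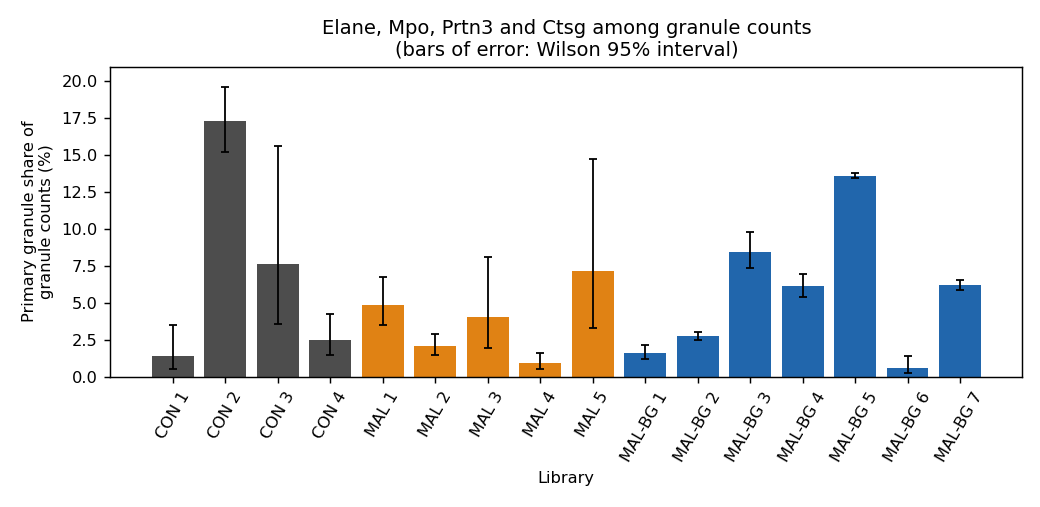
Share of Elane, Mpo, Prtn3, and Ctsg in the counts of these genes plus Camp, Ngp, Ltf, and Lcn2 (percent, vertical axis) in each library, with Wilson 95% intervals. CON replicate 2 (17.3%) and MAL-BG replicate 5 (13.6%) are highest, and intervals are wide where few counts were found.

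Ltf and Camp kept a steadier proportion. Ltf counts per 100 Camp counts ranged from 125 to 226 in CON, from 113 to 225 in MAL, and from 167 to 268 in MAL-BG. Ngp counts per 100 Camp counts had a median of 321 in CON, of 232 in MAL, and of 159 in MAL-BG, with MAL-BG replicate 6 at 315 and replicate 5 at 242. Chil3 counts per 100 Camp counts ranged from 226 to 6320 in CON and from 34.9 to 153 in MAL-BG. Lcn2 counts per 100 Camp counts ranged from 54.9 to 165 in CON, from 51.8 to 125 in MAL, and from 34.6 to 171 in MAL-BG.

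After subtraction of group means of log2 CPM, the 4 primary genes correlated with each other over 16 libraries (median Pearson r = 0.952 over 6 pairs, or 0.930 without MAL-BG replicate 5). The median over the 15 pairs of secondary genes was 0.837 (0.659 without that library), and over the 24 primary and secondary pairs 0.828 (0.705). These values share library depth and scaling and describe these libraries only. The genes whose residual profile was most like the mean of the secondary granule genes were S100a9 (r = 0.977), S100a8 (0.973), Spc24 (0.962), Itgb2l (0.960), Wfdc21 (0.929), Fcnb (0.917), Birc5 (0.917), and Mmp8 (0.915). Spc24 and Birc5 encode proteins of chromosome segregation in mitosis. Without MAL-BG replicate 5, 6 of these 8 stayed among the 8 most alike, with Fcnb and Mmp8 giving way to Exosc3 and Rabl3. Among the granule genes, Chil3 had the lowest correlation with that mean (0.745, or 0.524 without MAL-BG replicate 5).

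Other genes of granules and neutrophils were also counted, but they are not independent of the 10 genes. S100a9, S100a8, Fcnb, and Mmp8 followed the mean of the secondary granule genes within groups (r = 0.977, 0.973, 0.917, and 0.915). The paper already reports S100a8 and S100a9 as elevated in MAL-BG, and reads them as microglial genes tied to oxidation. By flow cytometry it found the CD11b+ samples to be mostly microglia, and it did not observe infiltration of peripheral immune cells. The lists of other granule and neutrophil genes were also drawn up with earlier results known. Adjusted p values given for them are therefore a description. Of 48 such genes in 4 lists, 45 were tested and 21 were called higher and 0 lower in each MAL-BG comparison, beside 11.4% of all genes called higher and 21.7% lower against CON, and 10.2% and 20.2% against MAL. Without MAL-BG replicate 5, 17 were called higher and 1 lower against CON, and 16 higher and 3 lower against MAL, beside 11.1% and 10.3% of all genes called higher. Their log2 fold changes had a median of 1.17 versus CON and of 1.08 versus MAL, beside -0.04 and -0.03 for all genes. These medians fell to 0.64 and 0.50 without MAL-BG replicate 5. Ms4a3, Fcnb, Mrgpra2b, Stfa2l1, Asprv1, and Fpr1, all among the 21 called, would not have passed the filter without the MAL-BG libraries. Their calls are a description for this reason too.

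Genes of mature neutrophils made up the largest of these counts relative to their list. Of 12 tested, 8 were called higher in each comparison, also without MAL-BG replicate 5, namely S100a8, S100a9, Cxcr2, Retnlg, Mrgpra2b, Asprv1, Clec4d, and Stfa2l1 (all genes called higher, 11.4% against CON and 10.2% against MAL). Mrgpra2b and Stfa2l1 had no CON or MAL library over 10 counts and passed the filter through MAL-BG alone, so their calls are a description only. Asprv1, with 1 CON and 1 MAL library over 10 counts, would not have passed without MAL-BG either. Its call is also a description, and these genes are all in the count of 8. S100a8, a subunit of calprotectin, had 27.0 ± 11.1 CPM in CON (SD, n = 4), 33.4 ± 24.2 in MAL (n = 5), and 566 ± 948 in MAL-BG (n = 7), where the median was 145. It rose by 4.39 ± 1.10 on the log2 scale against CON (edgeR, adjusted p = 0.00419) and 2.97 without MAL-BG replicate 5 (adjusted p = 0.00361). Cxcr2, the chemokine receptor that carries mature neutrophils out of the marrow, rose by 1.99 ± 0.62 (edgeR, adjusted p = 0.0158) and by 1.39 without that library (adjusted p = 0.0313). Csf3r, the G-CSF receptor, did not pass (log2 fold change -0.40 ± 0.30, edgeR adjusted p = 0.287).

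In the secondary and tertiary granule list, 8 of 16 genes were called higher in both comparisons, beside 11.4% and 10.2% of all genes. In the fit without MAL-BG replicate 5, 7 were called higher against CON, and 6 higher and 1 lower against MAL. Lrg1, a secreted glycoprotein stored in neutrophil granules, rose by 4.64 ± 0.81 against CON (edgeR, adjusted p = 0.000348), and by 3.91 without MAL-BG replicate 5. The collagenase Mmp8 rose by 3.74 ± 0.95 (edgeR, adjusted p = 0.00460) and the gelatinase Mmp9 by 3.97 ± 0.83 (edgeR, adjusted p = 0.00121), and without MAL-BG replicate 5 these were 2.71 and 3.16, both called. Pglyrp1, which binds peptidoglycan, Cyba, a subunit of the NADPH oxidase, and the formyl peptide receptors Fpr1 and Fpr2 rose by 1.82, 1.15, 2.38, and 1.99, or by 1.37, 1.13, 1.48, and 1.31 without that library. Fpr2 was then no longer called against MAL (0.87, edgeR adjusted p = 0.0784). Fpr1 had 1 CON and 2 MAL libraries over 10 counts, too few to pass the filter without MAL-BG, so its call is a description. Cd177, a neutrophil surface protein, rose by 2.48 ± 0.95 (edgeR, adjusted p = 0.0421) but was not called without MAL-BG replicate 5 (adjusted p = 0.155). Cyba and other members of this list are also expressed by microglia.

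In the primary granule list, 2 of 8 tested genes were called higher in each comparison, beside 11.4% and 10.2% of all genes. Without MAL-BG replicate 5, Gusb alone was called higher, and Lyz2, the lysozyme of myeloid cells, was called lower (-0.76 against CON, edgeR adjusted p = 0.0258, and -1.13 against MAL, adjusted p = 0.00205). Gusb, lysosomal beta-glucuronidase, rose by 0.83 ± 0.16 against CON (edgeR, adjusted p = 0.000829), by 0.83 also without that library, and is expressed by most cells. Serpinb1a, an inhibitor of elastase, proteinase 3, and cathepsin G, rose by 2.12 ± 0.83 (edgeR, adjusted p = 0.0457) and was not called without MAL-BG replicate 5 (adjusted p = 0.181). Prss57 was not tested, with 2 counts over the CON libraries, 7 over MAL, and 321 over MAL-BG, of which 42 came from the 6 libraries other than replicate 5.

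In the granulocyte progenitor list, 3 of 9 genes were called higher in each comparison, beside 11.4% and 10.2% of all genes, and 1 (Cd34) without MAL-BG replicate 5, when 0 were called lower against CON and 1 (Kit) against MAL. Ms4a3, which marks granulocyte and monocyte progenitors, had 0.186 ± 0.371 CPM in CON (SD, n = 4), 0.106 ± 0.194 in MAL (n = 5), and 5.93 ± 13.2 in MAL-BG (n = 7), with a median of 0.919 and a highest value of 35.7. It had no CON or MAL library over 10 counts and passed the filter through MAL-BG alone, so its log2 fold change of 5.07 ± 1.83 against CON (2.40 without MAL-BG replicate 5) is a description. Fcnb had 1 CON, 0 MAL, and 4 MAL-BG libraries over 10 counts and would not have passed the filter without MAL-BG. Its log2 fold change of 4.89 ± 1.83 against CON (1.39 without MAL-BG replicate 5) is therefore also a description. Of the 3 genes called, only Cd34 would have passed without MAL-BG. Cd34 rose by 1.17 ± 0.13 (1.18 without that library) from 175 ± 26.6 CPM in CON (SD, n = 4) to 396 ± 48.0 in MAL-BG (n = 7; edgeR, adjusted p = 1.08e-05), and it is also an endothelial gene. Gfi1, a repressor needed for granulocyte development, and Cebpa, a factor of the granulocyte lineage, did not pass (edgeR, adjusted p = 0.101 and 0.0565).

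**Figure D5:**
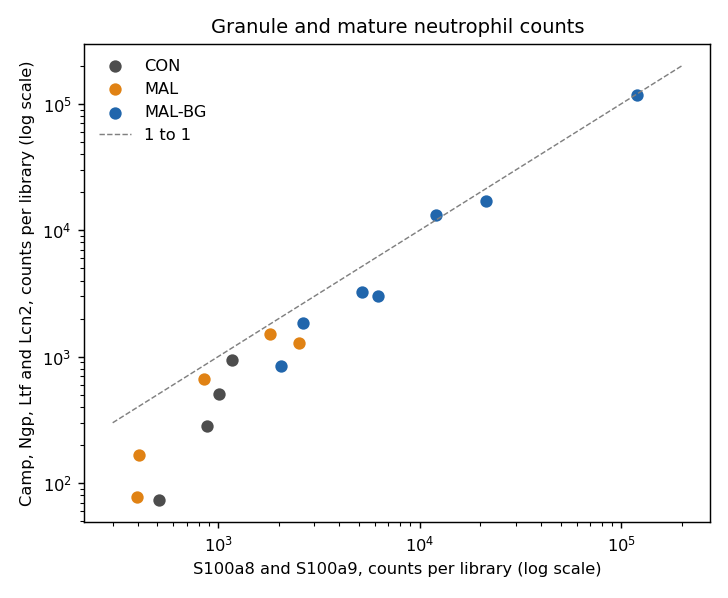
Counts of Camp, Ngp, Ltf, and Lcn2 summed (vertical axis) against counts of S100a8 and S100a9 summed (horizontal axis), both logarithmic, with a point for each of 16 libraries and a dashed line of equal counts. MAL-BG replicate 2 lies above the line with 109 granule counts per 100, MAL-BG replicate 5 lies on it with 98.8, and CON replicate 3 lies far below with 14.3.

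Relative to S100a8 and S100a9, secondary granule transcripts were not confined to MAL-BG. Camp, Ngp, Ltf, and Lcn2 together gave 32.4, 79.9, 14.3, and 50.05 counts per 100 S100a8 and S100a9 counts in CON replicates 1 to 4, and 78.2, 83.9, 41.3, 51.0, and 19.6 in MAL replicates 1 to 5. In MAL-BG they gave from 40.9 through a median of 70.0 to 109. The groups overlapped in this ratio, though the counts behind it ran from 73 granule counts in CON replicate 3 to 118373 in MAL-BG replicate 5.

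Of the regulators of granule genes, 7 of 8 were tested and 1 was called lower in both comparisons, a share no larger than that of all genes (21.7% and 20.2%). It was Cebpb, which drives emergency granulopoiesis and is also expressed in microglia. Cebpb fell by 0.96 ± 0.22 on the log2 scale against CON (edgeR, adjusted p = 0.00272) and by 0.71 ± 0.21 against MAL (adjusted p = 0.0129), or by 0.98 and 0.73 without MAL-BG replicate 5. Spi1, which encodes PU.1, stood at 0.08 ± 0.19 against CON (edgeR, adjusted p = 0.764), and microglia express it too. Among inhibitors and receptors of granule proteins, Slpi, an inhibitor of elastase and cathepsin G, rose by 2.33 ± 0.52 against CON (edgeR, adjusted p = 0.00207) and by 1.86 without MAL-BG replicate 5 (adjusted p = 0.00213). Slc22a17 and Lrp2 were called lower, 2 of 5 tested, beside the same shares of all genes. Slc22a17, a receptor of lipocalin-2, fell by 2.27 ± 0.34 (edgeR, adjusted p = 0.000127), and Lrp2, another receptor of lipocalin-2 that epithelia express, fell by 2.40 ± 0.54 (edgeR, adjusted p = 0.00215). Both stayed called without MAL-BG replicate 5, at -2.29 and -2.43. The choroid plexus and astrocyte markers were lower in the same libraries, and their part in these falls was not tested.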

How the data were processed

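RNA-Seq counts of CD11b+ brain cells of CON (4 mice), MAL (5), and MAL-BG (7) were used. Stranded poly(A) libraries were aligned by the authors to GRCm38 with STAR and read into gene counts with HTSeq, and these raw counts were deposited as they were, before any scaling. The submitters' processing notes give HTSeq version 2.5. Column names of the table gave the group of each library. The granule genes and all gene lists were chosen with earlier results of these data known, so adjusted p values of listed genes are a description.

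A gene was tested if over 10 counts were found in 4 or more libraries (14565 of 24421 rows). TMM scaling and 1 edgeR 4.0.16 fit of all 3 groups (R 4.3.3) preceded quasi-likelihood tests, with Benjamini-Hochberg adjusted p values. The tests weigh a difference between groups against the spread between these libraries. Log2 CPM used a prior count of 2. No batch term was fitted, because no source used here names the batch of a library. The authors' own model, in the paper's supplement, held a batch term beside the condition. Differences between batches were therefore not removed here. The steps were tested on simulated data. The median library total of CON was 12090968, that of MAL 11826750, and that of MAL-BG 16863746.

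Genes named were the 10 granule genes, listed genes called in both MAL-BG comparisons (otherwise the 3 with the largest mean CPM), Cxcr2, Csf3r, S100a8, S100a9, Ms4a3, Fcnb, Gfi1, Cebpa, and the 8 genes most like the secondary granule genes. Prss57, Lyz2, Kit, Spi1, Myb, Mki67, Top2a, and the markers of other lineages were named after their values were seen. Alternatives were other scalings and filters, DESeq2 1.42.0, fits of 2 groups, no fold threshold, and each library left out. A robust dispersion was added after seeing the data, as was the choice to show the fit without MAL-BG replicate 5 beside the results. Exon lengths came from GENCODE M21 and promoters from RefSeq, both on GRCm38.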

Additional observations from a re-analysis of the deposited data

Results flagged for a closer look

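All 10 granule genes had a MAL-BG library far from the others of its group, by Dixon's test at the 95% level, and it was replicate 5 each time. Its CPM was 254 for Elane, 506 for Mpo, 188 for Prtn3, and 63.9 for Ctsg. It was 1108 for Camp, 2682 for Ngp, 1926 for Ltf, 704 for Lcn2, 661 for Chil3, and 37.8 for Cebpe. CON replicate 2 stood apart from the other 3 CON libraries for 3 primary granule genes, with 7.89 CPM of Mpo, 5.19 of Prtn3, and 2.97 of Ctsg. These 13 came from 36 groups of values examined. A chance rate of 1 in 20 would hold for normally distributed values of unselected genes. The test used skewed CPM of genes selected on these libraries, so that rate does not apply and the flags are a description. The genes vary together, so these are not separate events. The origin of either library's granule transcripts was not tested.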

How the results depend on the processing

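The counts of called genes in each comparison, over all genes and over the 48 companion genes, stayed within 1.5 times the reported value under every alternative run. Leaving out 1 library at a time, calls ranged from 4081 to 5456 for MAL-BG versus CON (4820 reported), from 3854 to 4932 for MAL-BG versus MAL (4423 reported), and stayed at 0 for MAL versus CON. Companion genes called ranged from 17 to 24 and from 18 to 23. Granule genes called higher against CON ranged from 5 (without MAL-BG replicate 5, CON replicate 3, or CON replicate 4) to 9, and were 6 with only the 2 groups fitted. DESeq2 replaced the count of MAL-BG replicate 5 for Elane, Mpo, and Ctsg as an outlier, and its log2 fold changes against CON were 2.44, 2.19, and 0.55. Without CON replicate 2, Mpo had no CON count left, so its fitted fold change depends on the prior count. Of the values of single genes, 20 were labelled as moved, 50 as losing the call, 3 as gaining it, and 2639 as none of these. The label of moved was used for granule genes only. It meant a shift at least as large as the SD of log2 CPM between libraries within groups. The granule genes carried no p values here, so calls that they lost are not among the 50. An example is Elane against CON, which was not called without CON replicate 3. No value that was called changed direction. No paired analysis was possible because the running numbers of the columns match no sample title and pair no mice. Low counts limit the primary granule genes in CON and MAL, where Elane had 31 and 15 counts per group and Ctsg 35 and 8.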
